A study of Danio rerio with 6 samples.

Results

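The genes described here are 9 zebrafish globin genes named as embryonic, 4 of the alpha chain (hbae1.1, hbae1.3, hbae3 and hbae5) and 5 of the beta chain (hbbe1.1, hbbe1.2, hbbe1.3, hbbe2 and hbbe3). They were taken by symbol from the authors' deposited table, which holds 19722 rows, each with its own Ensembl identifier. The 9 symbols were found in 10 rows, because hbae1.3 is given to 2 identifiers. GFP-positive cells were sorted from 15-somite embryos of Gt(endocard:egfp), which is the gene trap Gt(SAGFF27C) driving Tg(4xUAS:egfp), and of Tg(fli1a:egfp), and 3 libraries of each line were sequenced from embryos that were otherwise wild type. For Gt(endocard:egfp), homozygous fish were crossed to wild type and only the cells of high GFP were kept, since cardiomyocytes express the reporter weakly. For Tg(fli1a:egfp), heterozygous fish were crossed to wild type and a single GFP gate was used, and this reporter labels blood cells as well as endothelium. The paper reports from time-lapse movies that Gt(endocard:egfp) likely labels a few myeloid cells too. These points limit what each line stands for as a model of endocardium or endothelium.

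Haemoglobin carries oxygen as a tetramer of alpha and beta chains, each holding a haem group. Zebrafish, like other vertebrates, make one set of chains in the first, primitive red cells of the embryo and another in later red cells, and the letters e and a in the gene names stand for embryonic and adult. The primitive red cells arise in the intermediate cell mass of the trunk, beside the first endothelial cells of the vessels. Globin transcription begins while these precursors are still forming and is driven by Gata1.

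The value given for each gene is the authors' mean expression over all 6 libraries in log2 CPM, where CPM is the read count of a gene scaled to a common library size. It is 1 value for both lines together, with no SD and no n, so it gives neither the level in Gt(endocard:egfp) nor that in Tg(fli1a:egfp). No difference between the lines is reported, and no test was run. In sorted bulk cells such a mean cannot tell apart a smaller number of red cell precursors and less RNA in each. Since the values were not divided by transcript length, an order of genes is an order of counted reads and not of transcripts. With 1 pooled mean per row, the differences between neighbouring values below have no error to be set against. Each value in CPM is the mean log2 CPM put back on the linear scale, and not the mean of the CPM of the libraries. The heading of these means names neither the libraries nor the unit, and both were taken from the usual meaning of that heading.

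Globin reads were abundant in this pooled mean for most of the rows. Of the 10 rows, 8 lay above the median of all rows, and these 8 were all within the highest 15% of the table. The other 2, hbbe2 and hbae5, lay below the median. The median of the 10 rows was 7.32 log2 CPM, against 2.58 log2 CPM for all 19722 rows. On the linear scale, these medians are 160 and 5.98 CPM.

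Among the alpha chain genes, the 2 rows of hbae1.3 had means of 8.47 log2 CPM (355 CPM, ENSDARG00000089124) and 7.38 log2 CPM (166 CPM, ENSDARG00000089475). hbae1.1 (ENSDARG00000088330) had a mean of 8.26 log2 CPM, or 306 CPM. hbae3 (ENSDARG00000079305) had a mean of 7.63 log2 CPM, or 199 CPM. These 4 rows thus lay within little more than 1 log2 unit of each other. The last alpha gene, hbae5 (ENSDARG00000045142), stood far below them at 1.37 log2 CPM, or 2.59 CPM. A share of 38.3% of all rows had a lower mean than hbae5, compared with 95.8% for hbae3 and 97.9% for the higher row of hbae1.3.

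Among the beta chain genes, hbbe1.1 (ENSDARG00000113599) had a mean of 8.39 log2 CPM, or 335 CPM, which was rank 437 of 19722 from the top. hbbe1.3 (ENSDARG00000087390) followed at 7.26 log2 CPM (153 CPM) and hbbe1.2 (ENSDARG00000115405) at 6.38 log2 CPM (83.1 CPM). hbbe3 (ENSDARG00000038147) had a mean of 6.06 log2 CPM, or 66.8 CPM. hbbe2 (ENSDARG00000045143) was the lowest at 2.12 log2 CPM, or 4.34 CPM. Between hbbe3 and hbbe2 lay the widest step in the order of the 10 rows, 3.94 log2 units, while the other steps ran from 0.08 to 0.88 log2 units. The median was 7.63 log2 CPM over the 5 alpha rows and 6.38 log2 CPM over the 5 beta rows, and the ranges of both chains overlapped over most of their length.

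**Figure D1:**
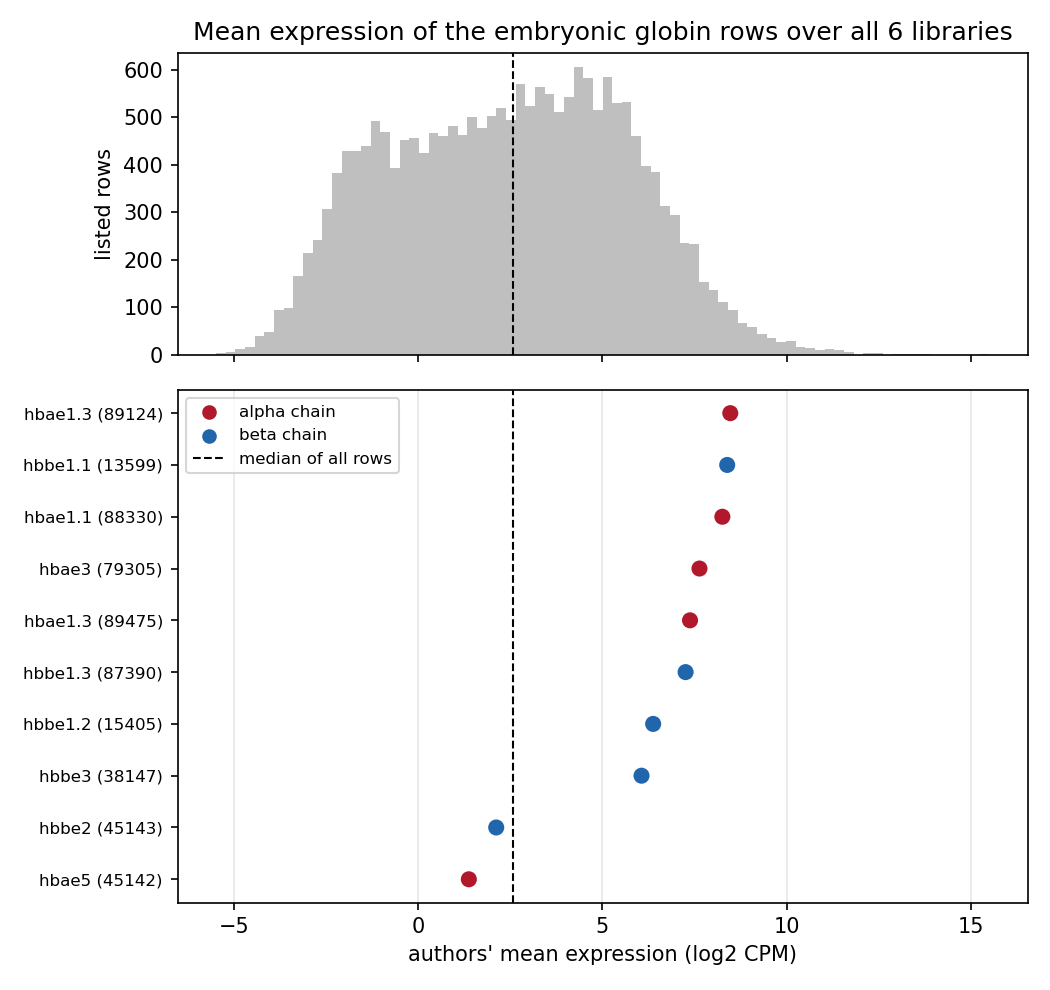
Mean expression of the 10 embryonic globin rows over all 6 libraries. The upper panel is a histogram of the mean in log2 CPM of all 19722 rows, and the lower panel shows each globin row as 1 point on the same axis, with the last 5 digits of its identifier, red for alpha and blue for beta chains; the dashed line is the median of all rows, 2.58 log2 CPM. A single pooled mean per row has no error bar. 8 points lie between 6.06 and 8.47 log2 CPM, and hbbe2 and hbae5 lie to the left of the dashed line.

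The position of the genes was examined next, because globin genes lie in clusters in which, in mammals, the order of the genes follows the time of their expression. Gene order was taken from RefSeq on the assembly GRCz12tu, whereas the reads had been mapped to GRCz11, so that coordinates of the newer assembly are not given. All 9 symbols were matched. The 17 globin genes of the alpha and beta type fell into 2 runs of neighbouring protein-coding genes, one of 13 genes and one of 4. In the longer run alpha and beta genes are intermingled, beginning beside nprl3 with 6 genes of the adult type (hbaa2, hbba2, ba1l, hbaa1, hbba1 and si:ch211-5k11.8) and ending with hbbe1.1, hbae1.1, hbbe1.2, hbae1.2, hbbe1.3, hbae1.3 and hbae3 before kank2. The shorter run consists of hbae4, hbbe3, hbbe2 and hbae5 between rhbdf1b and aqp8a.2.

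Sorted in this way, the 7 rows of the longer run had means from 6.38 to 8.47 log2 CPM with a median of 7.63 log2 CPM. The 3 member rows of the shorter run had means from 1.37 to 6.06 log2 CPM with a median of 2.12 log2 CPM, and the ranges of the 2 runs lay only 0.32 log2 units apart, between hbbe1.2 and hbbe3. This gap is smaller than several steps between rows within a run and has no error to be set against. hbae4, an embryonic alpha gene of the shorter run that is listed without a symbol under ENSDARG00000045144, had a mean of 3.67 log2 CPM, between hbbe3 and hbbe2. No row was found for the 6 adult genes under their symbols or the synonyms in RefSeq, and they are not analysed here.

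In counted reads, the 4 genes just outside the runs had lower means than the nearest listed globin gene. nprl3, whose introns hold the distant enhancers of the alpha globin genes in mammals, had a mean of 3.79 log2 CPM, and hbbe1.1 one of 8.39 log2 CPM. kank2, on the other side of the longer run, had a mean of 1.94 log2 CPM, whereas its neighbour hbae3 had 7.63 log2 CPM. rhbdf1b had a mean of 1.76 log2 CPM, against 3.67 log2 CPM for hbae4 beside it. aqp8a.2 had one of -1.41 log2 CPM, against 1.37 log2 CPM for hbae5 beside it.

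**Figure D2:**
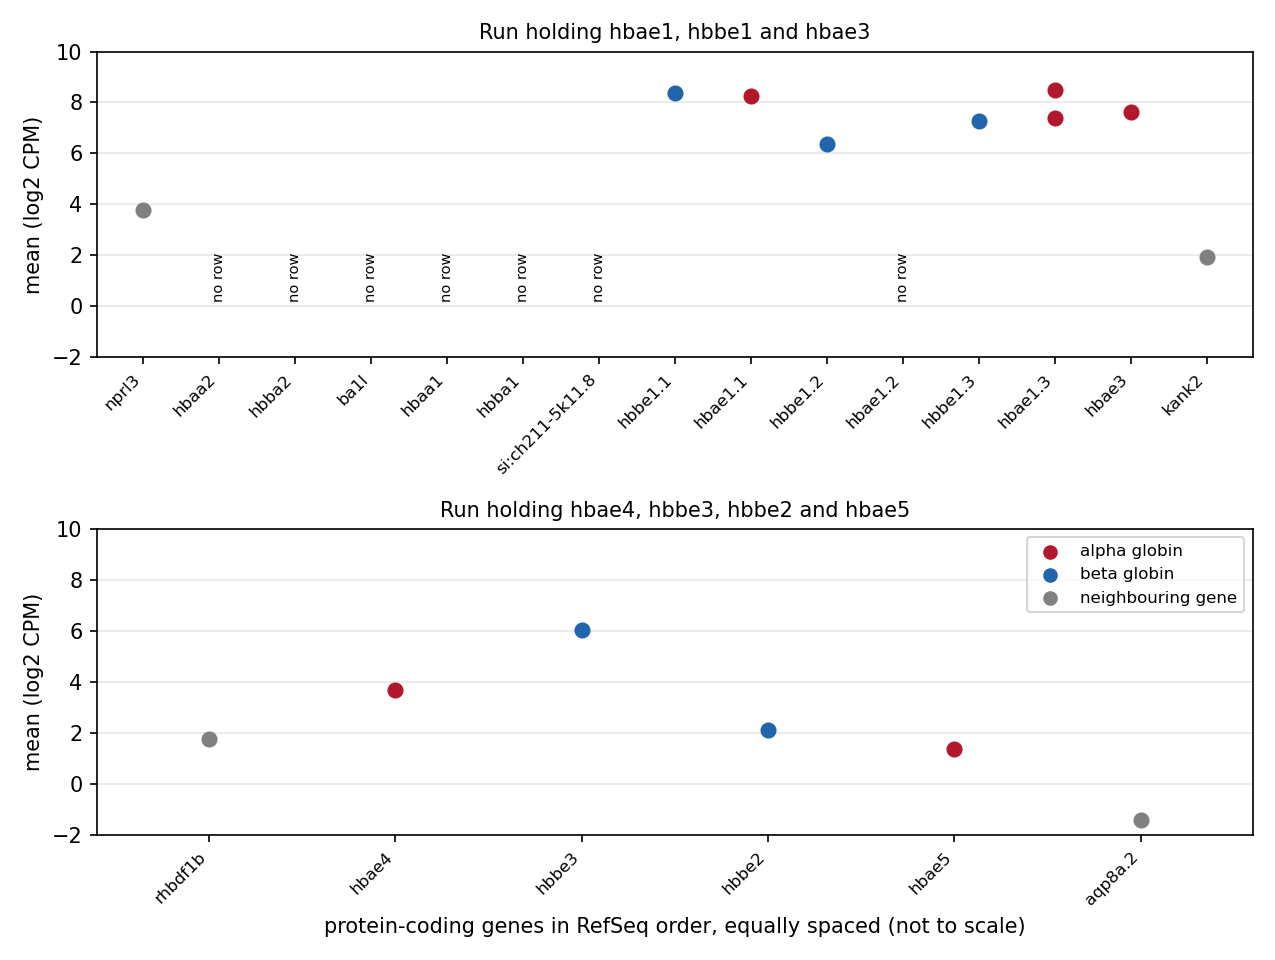
Mean expression over all 6 libraries, in log2 CPM, of the globin genes and the nearest protein-coding gene on either side, in RefSeq gene order with equal spacing that is not to scale. Red points are alpha globin rows, blue points beta globin rows and grey points neighbouring genes. The label "no row" marks genes with no row under that symbol. Rows without a symbol in the authors' deposited table, such as that of hbae4, were first named from a separate list of Ensembl gene names. The member rows of the upper run lie between 6.38 and 8.47 log2 CPM, and those of the lower run between 1.37 and 6.06 log2 CPM.

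The names of the rows need care. A separate list of Ensembl gene names gave the same symbol as the authors' deposited table for 4 of the 10 rows (1 of the rows of hbae1.3, hbae3, hbae5 and hbbe3). For another 4 rows (hbbe1.1, hbbe1.2, hbbe1.3 and hbbe2) it gave HBE1, the symbol of the human embryonic beta-like globin. The remaining 2 rows had another hbae1 name in that list. ENSDARG00000089475, the lower row of hbae1.3, was hbae1.1 there, and ENSDARG00000088330, listed as hbae1.1, was hbae1.2. By those names hbae1.1, hbae1.2 and hbae1.3 had 1 row each, with means of 7.38, 8.26 and 8.47 log2 CPM, and the gap at hbae1.2 in the gene order would be filled. More generally, symbols differed between both sources for 29.0% of the 14031 rows named in each, and 0.839% of the 13940 symbols in the table were given to more than 1 identifier. The hbae1 genes, and likewise the hbbe1 genes, closely resemble each other, and whether counting divided reads among such copies was not tested, so the mean of any single copy is uncertain.

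Other genes of red cell formation were then placed beside the globin genes, as lists with their medians in the same pooled mean. Of 12 erythroid transcription factors, all 12 were listed, with a median of 6.42 log2 CPM and a range from 0.85 log2 CPM for klf1, a factor that activates beta globin genes in mammals, to 10.01 log2 CPM for tal1, which acts early in blood and endothelium. The list is not specific to red cells, since lmo2 (9.53 log2 CPM) also acts in endothelium and the study examined cbfa2t3 (6.02 log2 CPM) as an endocardial gene, so its median is not a level of red cell precursors. gata1a, the driver of globin transcription, had a mean of 6.75 log2 CPM, and the blood factors gfi1b and nfe2 both had means of 3.51 log2 CPM. All 20 genes of a list for haem synthesis and iron were listed, with a median of 5.94 log2 CPM. This list also holds hmox1a (3.21 log2 CPM) and blvrb (3.89 log2 CPM), which act in haem breakdown, so its median is not that of haem synthesis alone. The lowest of the 20 was slc25a38a, a mitochondrial carrier needed for haem synthesis, at 0.09 log2 CPM. The highest was urod, a haem synthesis enzyme, at 8.91 log2 CPM. The medians of both lists lay above that of all rows, as did that of the globin rows, 7.32 log2 CPM.

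A list of genes of the red cell membrane and its skeleton had a lower median, and whether its genes are specific to red cells was not tested. Of 12 such genes, 8 were listed, with a median of 2.37 log2 CPM and a range from -1.92 log2 CPM for rhag, an ammonium channel of the Rh family, to 6.58 log2 CPM for sptb, the beta spectrin of the skeleton. Of 10 other red cell genes, 8 were listed, with a median of 3.36 log2 CPM, from 1.11 log2 CPM for rhd, another gene of the Rh family, to 6.39 log2 CPM for cahz, a carbonic anhydrase of zebrafish red cells. Whether these 8 genes are specific to red cells was not tested either, so their median is not a level of red cells. Of 14 globins outside the members, 5 were listed, and their median was low at 0.75 log2 CPM. Beside hbae4, 4 of them were listed. cygb1 had a mean of 2.36 log2 CPM and cygb2 one of -0.87 log2 CPM, both cytoglobins. mb, the oxygen store of muscle, had a mean of 0.75 log2 CPM, and adgb, the androglobin gene, one of -0.80 log2 CPM. Only hbae4 among these 5 lay above the median of all rows. hbae1.2, also outside the members, had no row under its symbol, but by the separate list of names it would be the row at 8.26 log2 CPM.

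**Figure D3:**
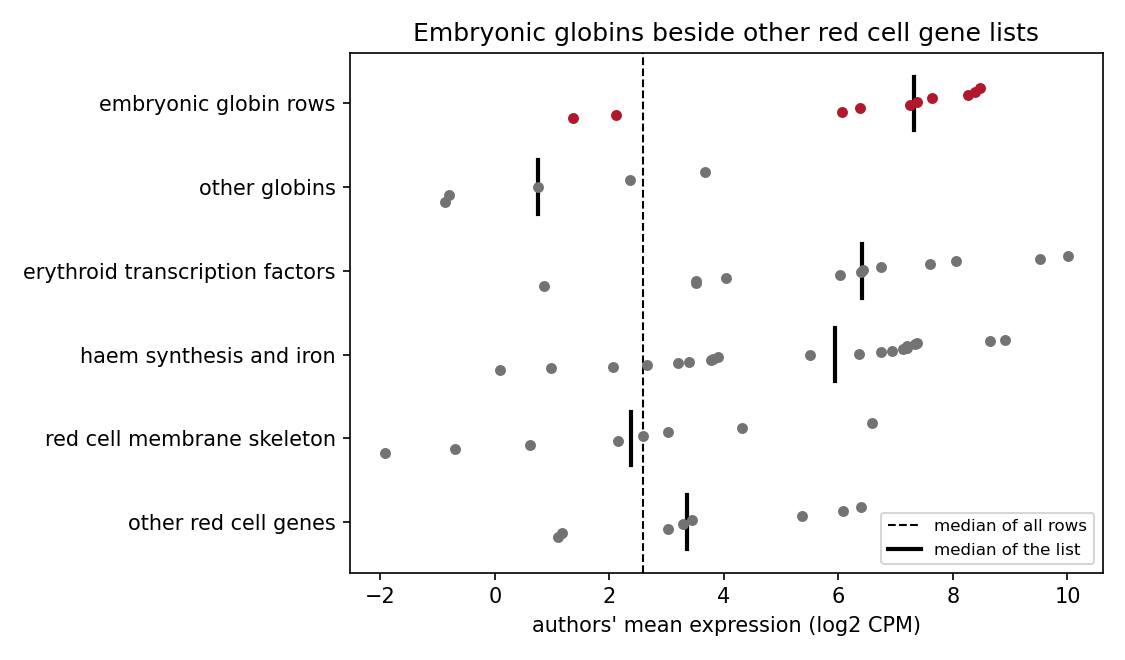
Mean expression over all 6 libraries, in log2 CPM, of the 10 embryonic globin rows (red) and of 5 lists of related genes (grey), 1 point per row with a small vertical offset for visibility. The thick bars are the list medians, 7.32 log2 CPM for the globin rows, and the dashed line is the median of all rows, 2.58 log2 CPM. The globin rows form a group of 8 between 6.06 and 8.47 log2 CPM and a group of 2 below the dashed line.

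Markers of the labelled tissues and of other cells were listed in the same pooled mean, which cannot show what either line labels. All 10 pan-endothelial markers were listed, with a median of 7.88 log2 CPM. They ran from 1.65 log2 CPM for pecam1, below the median of all rows, to 10.22 log2 CPM for fli1a, the gene whose reporter served to sort one of the lines. All 5 endocardial markers were listed, with a median of 5.68 log2 CPM, from 4.50 log2 CPM for nfatc1 to 9.55 log2 CPM for fn1a. The 5 red cell markers, which include gata1a, had a median of 6.39 log2 CPM. They ran from 1.18 log2 CPM for epor, below the median of all rows, to 7.13 log2 CPM for alas2. All 5 are also in the lists of red cell genes above, so they are not a separate result. Of 6 myeloid markers 4 were listed, with a median of 4.99 log2 CPM, from 1.34 log2 CPM for mpx to 9.87 log2 CPM for spi1b. The median of 5 myocardial markers, 1.53 log2 CPM, and that of the 5 of 6 skeletal muscle markers that were listed, 2.39 log2 CPM, lay below the median of all rows. Only the highest marker of each list lay above it, tnnt2a at 4.01 log2 CPM and actc1b at 6.57 log2 CPM. Reads of 4 neural markers (median 3.18 log2 CPM) and 4 epidermal markers (median 7.57 log2 CPM, with krt4 the highest at 10.67) were counted although the sorts kept only GFP-positive cells. From which line or cells the marker reads came, and their part in the globin means, was not tested.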

How the data were processed

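GFP-positive cells were sorted at the 15-somite stage, and 2 ng of RNA per library were amplified with Smart-seq2, which copies polyadenylated RNA by PCR and keeps no strand or molecule tag. Mapping to GRCz11 and read counting were done by the authors in Rsubread, followed by a limma fit; versions, the filter on low counts and the scaling of libraries are not given in the sources used here. From the authors' deposited table, the mean expression of each gene over all 6 libraries was used, in log2 CPM. Its heading, AveExpr, is the name limma gives the mean over all libraries in the fit, and it names no sample. On the linear scale these means sum to 956297 CPM. The other columns of the table hold the authors' own comparison of the lines (fold changes with confidence limits, test statistics and p-values) and were not used, so no test between the lines was run. Values per library, and therefore depth and spread, were not analysed. The samples were grouped by line from their titles.

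For every row, the share of rows with a lower mean was calculated; this step was tested on simulated data. Rows without a symbol were named from a list of Ensembl gene names, which matched 18622 of the 19722 identifiers. The genes named are all members, all listed globins of a list of other globins, the highest and lowest gene of each of the other lists of red cell genes, and the genes flanking the globin runs. Of 8 lists of cell type markers, the highest or lowest gene is named for all but the neural list. gata1a, lmo2, cbfa2t3, gfi1b, nfe2, klf17, ldb1a, zfpm1, klf3, tcf3a, hmox1a and blvrb were named after their values were seen. Members and lists were chosen with earlier results of these data known. Python 3.11.15, numpy 2.4.6, pandas 2.3.3 and matplotlib 3.10.9 were used.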

Additional observations from a re-analysis of the deposited data

How the results depend on the processing

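The median of the globin rows, 7.32 log2 CPM, was 7.33 on the log2(CPM + 1) scale and 7.26 log2 CPM when the 2 rows of hbae1.3 were summed. This sum adds means that were taken on the log2 scale, so it only approximates the mean of a combined row and is not on the same measure as the other levels. The median share of rows with a lower mean, 94.4%, was 92.5% among rows of at least 1 CPM and 93.1% among rows with a symbol. All 10 globin rows had at least 1 CPM, so the limit of 1 CPM removed only rows with lower means than theirs. Their shares therefore had to fall, most for the lowest rows, while their ranks from the top could not change. This limit thus did not test their placement. The share of rows lower than hbae5 went from 38.3% to 16.5% among rows of at least 1 CPM, and that for hbbe2 from 45.4% to 26.2%. Of the 13 gene and marker lists, 11 held no row below 1 CPM, so this limit could not change their medians and did not test them. The other 2 lists lost rows, and both medians moved. That of the other globins became 2.36 and that of the red cell membrane skeleton 2.81 log2 CPM.

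No paired analysis was possible because the mean used pools all 6 libraries. For the same reason no replicate was left out and no difference between the lines was fitted. Levels per coding length with the order of the genes, protein identities and promoter motifs were planned and not run, since no lengths or sequences of these genes were used here. The ratio of alpha to beta chains was also planned and not run. Library depth, which sets the precision of low means such as those of hbae5 and hbbe2, was not analysed.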
